A study of Caenorhabditis elegans with 6 samples.

Results

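A group of 10 genes that drive the cell division cycle were followed in whole hermaphrodites of *Caenorhabditis elegans*, namely the B-type cyclin genes cyb-1, cyb-2.1, cyb-2.2 and cyb-3, the A-type cyclin gene cya-1, the E-type cyclin gene cye-1, the cyclin-dependent kinase genes cdk-1 and cdk-2, the Polo kinase gene plk-1 and the Aurora A kinase gene air-1. The 10 genes and the gene lists used below were chosen by name and function, with earlier results of these data known. Each of the 10 symbols matched 1 of the 46748 features of the count table. RNA sequencing covered 6 libraries of the strain N2, the wild-type laboratory strain, from whole worms of 5 days of age. In 3 libraries the perturbation label was the gene Y6B3B.9, and in the other 3 it was L4440, the name of a vector plasmid that serves as the usual control in feeding RNA interference. The labels give neither the direction nor the mode of the perturbation, and no other allele, agent or treatment. They do not say whether the libraries came from separate cultures or whether worms were pooled, so p-values measure the spread between these libraries, which may be technical.

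A cyclin binds a cyclin-dependent kinase and switches it on, and the rise and destruction of cyclins order the division cycle. In animals E-type cyclins with CDK-2 act at entry into DNA replication, A-type cyclins act through replication and after it, and B-type cyclins with CDK-1 bring on mitosis. Polo and Aurora A kinases mature the centrosomes, build the spindle and help to activate CDK-1. In an adult worm the somatic cells no longer divide, and division goes on in the germline and in the embryos carried by the mother. The growing oocytes also store messenger RNA of these genes for the first divisions of the embryo. In RNA of whole worms, fewer germ cells or embryos and less RNA per cell cannot be told apart.

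Reads counted in genes ranged from 23103541 to 32012257 per library. Y6B3B.9 itself (WBGene00012393) took 1057, 1211 and 969 reads in the libraries labelled with its name and 578, 557 and 666 in those labelled L4440, 35.8 ± 3.58 against 22.8 ± 0.387 CPM (SD, n = 3 each), so the labelled gene was higher and not lower there (by 0.65 log2 units with SE 0.074; adjusted p from edgeR 1.26e-06). Levels are given in CPM, counts relative to the library total after TMM scaling. Changes are log2 ratios of the libraries labelled Y6B3B.9 over those labelled L4440, "fell" and "lower" meaning lower under the label Y6B3B.9. Of 14265 genes tested, 37.7% were called lower and 46.4% higher at an adjusted p of 0.05 (edgeR quasi-likelihood test, Benjamini-Hochberg), and the median over all of them was a log2 change of 0.22. Of the tested genes, 63.0% had a change below that of Y6B3B.9 itself, so its rise was not unusual in this comparison.

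All 10 genes fell. They passed the filter on low counts in full, 10 of 10 were called lower and 0 higher, and in 10 of 10 every library labelled Y6B3B.9 lay below every library labelled L4440, a pattern found in 38.3% of the tested genes (47.1% had the opposite pattern). Their levels under the label Y6B3B.9 were between 45.3% (cyb-1) and 65.3% (cyb-2.1) of those under the label L4440. The median log2 change was -0.88, and 3 of the 10, cyb-1, cyb-3 and cya-1, fell at least 2-fold, as did 10.2% of all tested genes. From 7.29% (cyb-1) to 22.1% (cyb-2.1) of the tested genes had a change below that of the gene. The count of 10 was the same with DESeq2's size factors (41.7% of all genes lower and 41.2% higher), with library totals (27.9% and 57.5%) and with a trend on gene length removed (38.1% and 44.8%). Each gene had between 695 and 36998 reads per library, and the coefficient of variation of its CPM lay between 0.698% and 8.82% under the label Y6B3B.9 and between 0.855% and 4.23% under the label L4440.

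**Figure D1:**
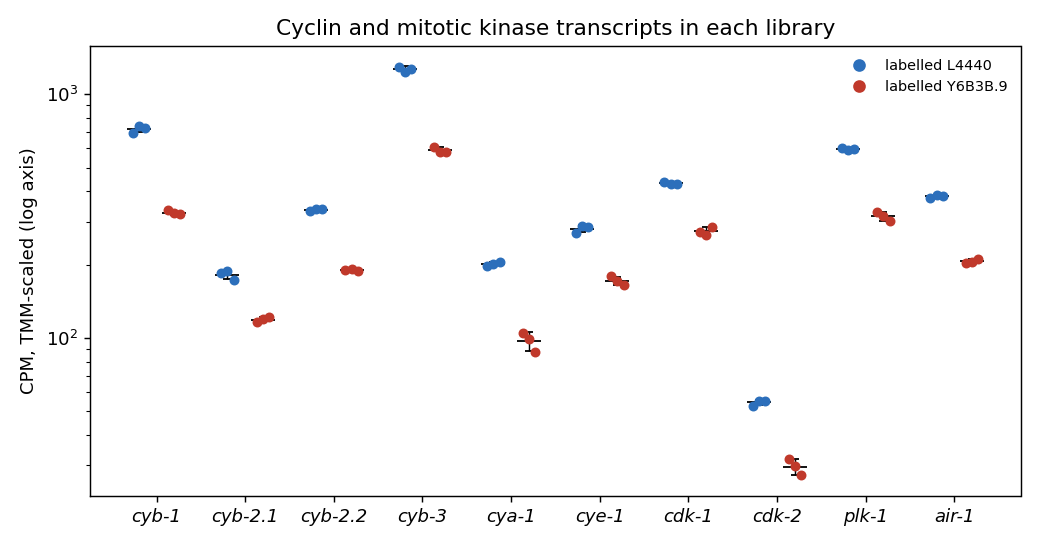
TMM-scaled CPM (log axis) of the 10 genes in each of the 6 libraries, one point a library, with the mean and SD of each group as black bars. For every gene the 3 libraries labelled Y6B3B.9 lie below the 3 labelled L4440, with the widest gap for cyb-1 and the narrowest for cyb-2.1.

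Among the B-type cyclins, cyb-3 and cyb-1 fell the most. cyb-3 (WBGene00000868) encodes the cyclin B3, which is needed for timely separation of chromosomes, and lies on the plus strand of chromosome V at 15395696 to 15397353 (build WBcel235) in 5 exon blocks (exons merged over transcripts). Its level was 609, 579.5 and 581 CPM in the libraries labelled Y6B3B.9 and 1300, 1232 and 1271 CPM in those labelled L4440. The groups were far apart, at 590.0 ± 16.4 against 1268 ± 33.9 CPM (SD, n = 3 each), a change of -1.104 log2 units (SE 0.051, adjusted p from edgeR 8.78e-11). cyb-1 (WBGene00000865), a cyclin B1 type gene, lies on the plus strand of chromosome IV at 10735216 to 10737177 with 6 exon blocks. It stood at 334, 324 and 322 CPM in the libraries labelled Y6B3B.9 and 696, 738 and 728 CPM in those labelled L4440. The means were 327 ± 6.08 against 721 ± 21.7 CPM (SD, n = 3 each), a change of -1.14 log2 units (SE 0.049, adjusted p from edgeR 4.69e-11). No library of one label came near those of the other for either gene.

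The paired B-type cyclin genes cyb-2.1 and cyb-2.2 fell less. cyb-2.1 (WBGene00000866), on the plus strand of chromosome IV at 10985985 to 10987426 with 4 exon blocks, was at 116, 119 and 122 CPM in the libraries labelled Y6B3B.9 and 185, 188 and 173 CPM in those labelled L4440. The groups stood at 119 ± 2.98 against 182 ± 7.71 CPM (SD, n = 3 each), the smallest fall among the 10 genes with a change of -0.61 log2 units (SE 0.048, adjusted p from edgeR 2.01e-08). cyb-2.2 (WBGene00000867), on the plus strand of chromosome I at 4114861 to 4116370 with 4 exon blocks, was at 189, 191 and 189 CPM in the libraries labelled Y6B3B.9 and 330.4, 338 and 338 CPM in those labelled L4440. Its 3 libraries labelled Y6B3B.9 were the closest together of any gene here, and the groups stood at 190.0 ± 1.33 against 336 ± 4.49 CPM (SD, n = 3 each), a change of -0.82 log2 units (SE 0.045, adjusted p from edgeR 4.24e-10). The pair are closely related copies, so reads may have been divided between them or left uncounted, and the level of either one is uncertain. In the same library the count ratio of cyb-2.1 to cyb-2.2 was 0.612, 0.622 and 0.644 under the label Y6B3B.9 and 0.561, 0.555 and 0.513 under the label L4440. The ratio was thus higher under the label Y6B3B.9 in every library, by 1.15-fold (exact two-sided permutation test, p = 0.1, the smallest that 3 against 3 libraries allow; 0.12 adjusted over the 6 ratios compared).

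The make-up of the B-type cyclin transcripts moved a little with these differences. Per length of the counted gene, cyb-3 held 48.1% ± 0.62 of the 4 B-type cyclin transcripts under the label Y6B3B.9 and 50.9% ± 1.17 under the label L4440 (SD, n = 3 each). cyb-1 held 24.5% ± 0.114 and 26.6% ± 0.887. cyb-2.1 went the other way, with 11.15% ± 0.43 and 8.40% ± 0.369, and so did cyb-2.2 with 16.3% ± 0.308 and 14.1% ± 0.233. These shares were chosen after the values were seen and were not tested. The pair cyb-1 and cyb-3 had count ratios of 0.548, 0.559 and 0.555 under the label Y6B3B.9 and 0.536, 0.599 and 0.573 under the label L4440, with overlapping groups (difference of log2 ratios -0.04, exact two-sided permutation test, p = 0.5).

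The A-type and E-type cyclin genes both fell, cya-1 by more. cya-1 (WBGene00000863), which lies on the minus strand of chromosome III at 9106699 to 9109272 with 6 exon blocks, was at 105, 99.2 and 87.9 CPM in the libraries labelled Y6B3B.9 and 197, 201 and 204 CPM in those labelled L4440. By coefficient of variation (8.82%) the 3 libraries labelled Y6B3B.9 were the most spread of any gene here, the lowest being replicate 3. The groups were at 97.3 ± 8.58 against 201 ± 3.91 CPM (SD, n = 3 each), a change of -1.04 log2 units (SE 0.059, adjusted p from edgeR 5.87e-10). The end of dos-1 on the other strand shares 107 bases of exon with cya-1, but dos-1 took 774 reads over the 6 libraries against 24789 for cya-1. cye-1 (WBGene00000871), the partner gene of cdk-2 that also keeps germline stem cells cycling, lies on the plus strand of chromosome I at 6780799 to 6784397 with 8 exon blocks. It was at 179, 171 and 165 CPM in the libraries labelled Y6B3B.9 and 269.7, 287 and 286 CPM in those labelled L4440. The group values were 172 ± 7.02 against 281 ± 9.8 CPM (SD, n = 3 each), a change of -0.71 log2 units (SE 0.05, adjusted p from edgeR 5.87e-09).

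The balance between both of these cyclin genes shifted by more than that of the other 5 gene pairs whose count ratios were tested. The count ratio of cya-1 to cye-1 was 0.586, 0.579 and 0.533 under the label Y6B3B.9 and 0.729, 0.700 and 0.715 under the label L4440. Every library labelled Y6B3B.9 was below every one labelled L4440, and the ratio was 0.791 of its L4440 value (difference of log2 ratios -0.34, exact two-sided permutation test, p = 0.1, adjusted p = 0.12). Their counted lengths are nearly equal, at 2096 bases for cya-1 and 2114 for cye-1, and the difference was again -0.34 once the trend on gene length was removed. The share of all gene pairs whose ratios separate the labels was not computed. The tested ratio shifts can therefore not be read as particular to their pairs.

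Both cyclin-dependent kinase genes fell, and cdk-2 was the least abundant of the 10. cdk-1 (WBGene00000405), the kinase of mitosis and of the meiotic divisions of the oocyte, lies on the plus strand of chromosome III at 9747472 to 9748852 with 5 exon blocks. Its level was 273, 265 and 285 CPM in the libraries labelled Y6B3B.9 and 437, 427 and 429 CPM in those labelled L4440. The fall was among the smaller ones, at 274 ± 9.99 against 431 ± 5.03 CPM (SD, n = 3 each), a change of -0.65 log2 units (SE 0.048, adjusted p from edgeR 9.86e-09). cdk-2 (WBGene00019362), on the plus strand of chromosome I at 3410013 to 3416368 with 7 exon blocks, was at 31.7, 29.96 and 27.3 CPM in the libraries labelled Y6B3B.9 and 52.7, 55.0 and 55.4 CPM in those labelled L4440. Replicate 3 was again the lowest, the groups being at 29.7 ± 2.21 against 54.4 ± 1.49 CPM (SD, n = 3 each), a change of -0.87 log2 units (SE 0.061, adjusted p from edgeR 5.69e-09). The counted length of cdk-2, implied by its count and RPKM, is 1107 bases, while its exons in the annotation used here span 2329 bases, so part of its transcript may not have been counted.

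The count ratio of cdk-1 to cdk-2 was 8.59, 8.85 and 10.4 under the label Y6B3B.9 and 8.29, 7.75 and 7.75 under the label L4440. It was higher in every library labelled Y6B3B.9, by 1.17-fold (exact two-sided permutation test, p = 0.1, adjusted p = 0.12). The difference of log2 ratios was 0.22. Leaving out single libraries gave between 0.14 (without Y6B3B.9 replicate 3) and 0.28 (without Y6B3B.9 replicate 1). With the length trend removed it was 0.27, a value that rests on the uncertain counted length of cdk-2. The 4 B-type cyclins together stood at 3.76 ± 0.151 transcripts per length for each of cdk-1 under the label Y6B3B.9 and at 4.86 ± 0.0413 under the label L4440 (SD, n = 3 each). By library this quotient was 3.85, 3.86 and 3.59 against 4.81, 4.89 and 4.89, with no overlap. It was chosen after the values were seen and carries no test.

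The Polo and Aurora A kinase genes fell by similar amounts. plk-1 (WBGene00004042), whose kinase drives centrosome maturation, breakdown of the nuclear envelope and polarity of the early embryo, lies on the plus strand of chromosome III at 8101348 to 8104069 with 6 exon blocks. It was at 327, 318 and 301 CPM in the libraries labelled Y6B3B.9 and 599, 589 and 596 CPM in those labelled L4440. The groups were at 315 ± 13.1 against 595 ± 5.08 CPM (SD, n = 3 each), a change of -0.91 log2 units (SE 0.05, adjusted p from edgeR 4e-10). air-1 (WBGene00000098), the Aurora A gene that acts in spindle assembly, lies on the plus strand of chromosome V at 8221488 to 8223582 with 7 exon blocks. It was at 202, 206 and 211 CPM in the libraries labelled Y6B3B.9 and 374, 386 and 383 CPM in those labelled L4440. The groups were at 206 ± 4.26 against 381 ± 6.15 CPM (SD, n = 3 each), a change of -0.89 log2 units (SE 0.046, adjusted p from edgeR 2.6e-10).

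The paralogs plk-2 of plk-1 and air-2 of air-1 fell as well, by slightly less. plk-2, which acts in pairing of chromosomes in meiosis, had a log2 change of -0.78, and air-2, the Aurora B kinase gene, one of -0.80. A further Polo paralog, plk-3, was at -0.88 and was not compared by ratio. The count ratio of plk-1 to plk-2 was 2.70, 2.64 and 2.49 under the label Y6B3B.9 and 2.92, 2.74 and 2.91 under the label L4440. That of air-1 to air-2 was 2.48, 2.58 and 2.52 against 2.64, 2.71 and 2.72. In both pairs all libraries labelled Y6B3B.9 were lower, by 0.13 and 0.09 on the log2 scale (exact two-sided permutation test, p = 0.1 each, adjusted p = 0.12). With the length trend removed neither pair kept its groups apart, at -0.08 for plk-1 to plk-2 and 0.03 for air-1 to air-2.

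Per length, the order of the transcripts was nearly the same under both labels. Under the label L4440 it ran from cyb-3 at 871 ± 23.3 RPKM (TMM-scaled CPM per kilobase of counted length; SD, n = 3), through cyb-1 (454 ± 13.6), cdk-1 (352 ± 4.1), air-1 (268 ± 4.33), plk-1 (257 ± 2.19), cyb-2.2 (242 ± 3.23), cyb-2.1 (144 ± 6.08), cye-1 (133 ± 4.64) and cya-1 (95.8 ± 1.87) to cdk-2 (49.1 ± 1.34). The ranges of neighbours in that order did not overlap. Under the label Y6B3B.9 cyb-3 was again the highest, at 405 ± 11.3 RPKM, and cdk-2 the lowest, at 26.8 ± 1.99. There cdk-1 (224 ± 8.15) stood above cyb-1 (206 ± 3.83), the reverse of their order under the label L4440. cyb-2.2 (137 ± 0.955) and plk-1 (136 ± 5.67) overlapped, the only neighbours to do so.

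The order of the falls was less sharply resolved. Of the 9 steps between neighbours in log2 change, from cyb-1 to cyb-2.1, only those from cya-1 to plk-1 (a difference of log2 changes of -0.13) and from cyb-2.2 to cye-1 (-0.11) separated the groups in the within-library ratio. For both, p was 0.1 by an exact two-sided permutation test, the smallest possible, and for the other 7 it lay between 0.4 and 0.8. The pairs were taken from the observed order and these p are not adjusted, so they only describe the steps. The share of all gene pairs that separate the labels was not computed. With the length trend removed the order changed, air-1 (-0.87) falling more than cya-1 (-0.80) and plk-1 (-0.60).

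**Figure D2:**
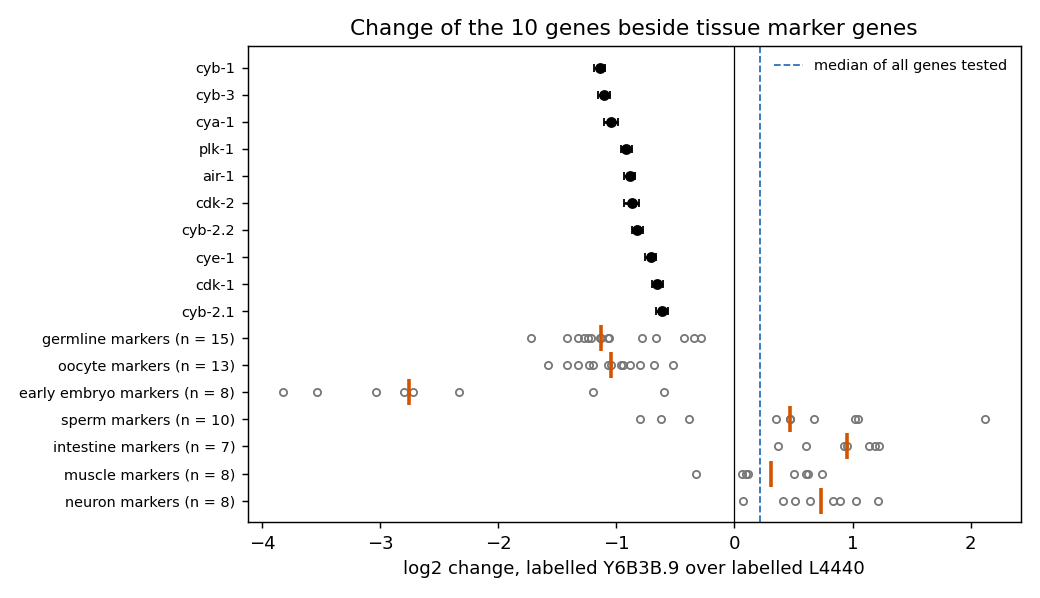
Log2 change of each of the 10 genes with its standard error (black points), and of single tested marker genes of tissues (open circles) with the list median (orange bar). The dashed line marks 0.22, the median of the 14265 genes tested, and all 10 genes, from -1.14 to -0.61, lie within the range of the germline markers.

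Markers of the germline, the oocytes and the early embryo fell beside the 10 genes. All 15 germline markers fell with a median log2 change of -1.13, their summed level lying between 2280 and 2468 CPM under the label Y6B3B.9 and between 5129 and 5316 under the label L4440. All 13 oocyte markers fell with a median of -1.04, and summed to between 8017 and 8206 CPM against 16407 to 16786. Of 11 early embryo markers 8 could be tested and 8 fell, with a median of -2.76 and sums of 17.98 to 23.9 against 108 to 162 CPM. Of the other 3, med-1 had 0 reads, hlh-27 had 4 and end-1 had 38 over the 6 libraries. Sperm markers split, with 4 of 10 tested higher and 2 lower, at sums of 35.0 to 39.6 against 36.1 to 37.05 CPM.

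Markers of the intestine and of neurons went the other way. All 7 intestinal markers tested rose, with sums of 3106 to 3448 CPM under the label Y6B3B.9 against 1782 to 1851. Of 8 neuronal markers 7 rose, with sums of 359 to 394 against 281 to 298 CPM, and of 8 muscle markers 4 rose and 1 fell, with sums of 987 to 1099 against 699 to 910 CPM. With library totals 13 of 15 germline and 13 of 13 oocyte markers were still called lower, and without the length trend 14 and 13. Muscle markers called higher and lower numbered 7 and 0 with library totals, 8 and 0 without the length trend, and 4 and 1 by the scaling of DESeq2. Sperm markers called higher and lower numbered 6 and 1, 3 and 2, and 3 and 3 under these settings. Neuronal markers called higher and lower numbered 8 and 0, 7 and 1, and 6 and 0 in the same order. Of the 8 early embryo markers tested, 7 were called lower with library totals. The part that a changed share of germline and embryo tissue has in the falls of the 10 genes was not tested.

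Set against reads of the germline markers in the same library, the 10 genes parted into 3 whose groups overlapped and 7 whose groups did not. This quotient does not depend on the scaling of libraries. The summed germline marker level changed by -1.15 log2 units, while the median change of all tested genes was 0.22. A gene that fell less than the markers therefore rises in this quotient. The share of all tested genes with groups apart in this quotient was not computed. The count of 7 can therefore not be read as particular to these genes. For each 1000 germline marker reads, cyb-1 had 135, 139 and 141 reads under the label Y6B3B.9 and 136, 139 and 139 under the label L4440, with overlapping groups and a ratio of 1.01. cyb-3 had 247, 249 and 255 against 254, 232 and 242, also overlapping, and cya-1 had 42.4, 42.6 and 38.6 against 38.3, 37.8 and 38.9. The exact two-sided permutation p was 0.8, 0.3 and 0.2 for these 3 genes.

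The other 7 genes took more reads per germline marker read in every library labelled Y6B3B.9. cyb-2.1 had 46.9, 51.2 and 53.4 reads against 36.1, 35.3 and 33.0 for each 1000, a ratio of 1.45. cdk-1 had 110, 114 and 125 against 85.1, 80.3 and 81.8, a ratio of 1.41. cye-1 had 72.5, 73.6 and 72.3 against 52.6, 54.1 and 54.5, a ratio of 1.36. The ratios of cyb-2.2, cdk-2, air-1 and plk-1 were 1.26, 1.21, 1.2 and 1.18. For all 7 the exact two-sided permutation p was 0.1, the smallest possible, or 0.143 adjusted over the 10 genes, so none passes a threshold of 0.05.

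These quotients moved with gene length and, where length was not corrected for, with the choice of reference. The germline markers have a median counted length of 2347 bases and the 10 genes one of 1439. With the length trend removed, cye-1 (1.32), plk-1 (1.19), cyb-2.1 (1.15) and cdk-1 (1.102) were still above the germline marker reads with no overlap between groups. cyb-2.2 (1.03), cya-1 (1.04) and air-1 (0.989) overlapped, and cyb-1 (0.863), cyb-3 (0.859) and cdk-2 (0.916) were lower in every library labelled Y6B3B.9. The corrected value of cdk-2 rests on its uncertain counted length of 1107 bases. Against the oocyte marker reads, with no correction for length, the ratios ran from 0.927 for cyb-1 to 1.34 for cyb-2.1. With the length trend removed both references gave nearly the same ratios, such as 0.864 (oocyte) and 0.863 (germline) for cyb-1, 1.147 and 1.145 for cyb-2.1, and 1.318 and 1.316 for cye-1. cyb-2.2, at 1.027 and 1.026, had no overlap between groups against oocyte reads and an overlap against germline reads.

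**Figure D3:**
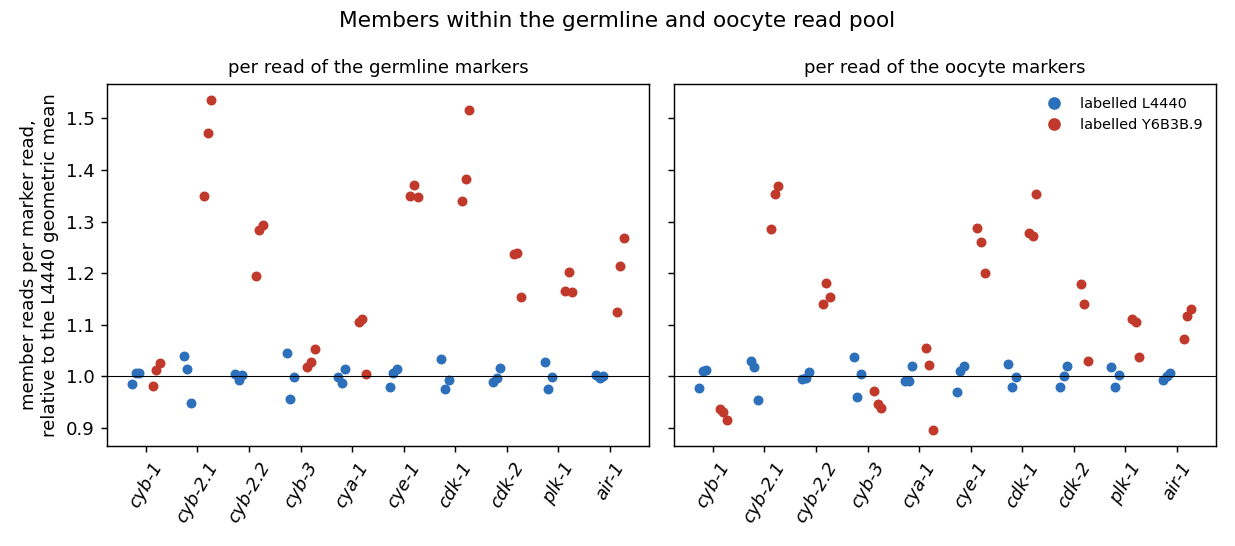
Reads of each gene per read of the germline markers (left) or oocyte markers (right) in the same library, relative to the geometric mean of the L4440 libraries, one point a library. cyb-1, cyb-3 and cya-1 lie near 1 on the left, while cyb-2.1, cdk-1 and cye-1 lie highest under the label Y6B3B.9, at ratios of 1.45, 1.41 and 1.36.

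Long transcripts were lower relative to short ones under the label Y6B3B.9. Against each gene's mean over the 6 libraries, the median deviation of tested genes of at least 2187 bases minus that of genes of at most 760 bases was -0.42, -0.56 and -0.68 log2 units in the 3 libraries labelled Y6B3B.9. It was 0.54, 0.51 and 0.55 in those labelled L4440. Replicate 3 of the label Y6B3B.9, the lowest of its group for cyb-1, cyb-2.2, cya-1, cye-1, cdk-2 and plk-1 and the highest for cdk-1, cyb-2.1 and air-1, was also the one with the most negative value. Its part in these differences between genes was not tested.

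All 10 genes were called lower with that trend removed. The trend was fitted to these same changes over all tested genes, which have a median length of 1302 bases. Germline markers, with a median length of 2347 bases, fell by a median of -1.13. An effect of length and a change of tissue share that follows length therefore cannot be told apart, and removing the trend may remove part of either. Tested genes within 0.1 log2 units of a member's length had median log2 changes between -0.28 (at the length of plk-1) and 0.38 (at that of cdk-2), above the value of the member in all 10 cases. The correction made the fall of the longer genes smaller, with cye-1 at -0.46, plk-1 at -0.60 and cya-1 at -0.80, and moved cdk-2 to -0.98 and cdk-1 to -0.72. cyb-3 (-1.08) and cyb-1 (-1.07) then had the largest falls. The corrected value of cdk-2 rests on its counted length of 1107 bases, which is uncertain because its annotated exons span 2329 bases. cyb-3, air-1 and cyb-2.2 have similar lengths of 1456, 1421 and 1389 bases, and their uncorrected log2 changes were -1.104, -0.89 and -0.82.

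**Figure D4:**
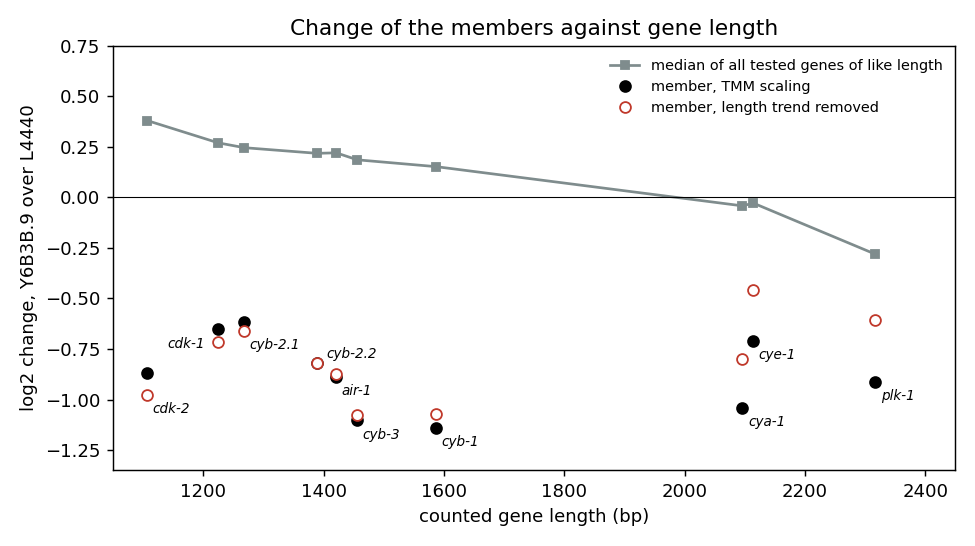
Log2 change of each member against its counted length, with TMM scaling (black) and with the length trend removed (open red), beside the median for tested genes of like length (grey). All members lie below the grey line, which falls from 0.38 at the shortest member to -0.28 at the longest.

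Other genes of the division cycle, and relatives of its cyclins and kinases, fell too, with few exceptions. Of 122 genes in 8 lists 121 were tested, 116 fell, 2 rose and 3 were not called, against 37.7% lower and 46.4% higher of all tested genes. The list of 18 other cyclins and cyclin-dependent kinases was set by family. It includes genes known for parts in transcription or RNA processing, so these counts are not of division genes alone. Their median log2 change was -0.87. With DESeq2's size factors 117 fell and 2 rose, with library totals 104 and 9, and without the length trend 109 and 4. The 2 that rose were cki-1 and cdka-1. The lists were chosen with earlier results of these data known, so the comparison with all tested genes is not independent of the data.

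Regulators of CDK activity fell, all but cki-1. Of 15 tested, 14 fell, with a list median of -0.95, while cki-1 rose. cki-1 encodes an inhibitor of cyclin-dependent kinases that holds cells out of the cycle, and it went from 3.83 ± 0.293 CPM under the label L4440 to 13.8 ± 0.317 under the label Y6B3B.9 (SD, n = 3 each), a change of 1.84 log2 units (SE 0.10; adjusted p from edgeR 4.28e-10). Its paralog cki-2 was at -0.81. The anaphase-promoting complex activator gene fzr-1 (-1.13), the CDK-activating phosphatase gene cdc-25.1 (-1.14), the ubiquitin ligase scaffold gene cul-1 (-1.19) and cdc-25.3 (-1.52) had the smallest p. The inhibitory kinase gene wee-1.3, which restrains CDK-1 in the oocyte, fell by 0.81 on the log2 scale. cdc-25.4 had 13 reads over the 6 libraries and was not tested.

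Of 18 other cyclins and cyclin-dependent kinases 16 fell, with a median of -0.54. cdk-11.2 (-1.40), the cyclin T gene cit-1.1 (-1.06), cdk-11.1 (-1.06) and cdk-8 (-0.85) had the smallest p, all 4 belonging to families known for parts in transcription or RNA processing. The D-type cyclin gene cyd-1, which acts at the start of the cycle with cdk-4, was at 13.6 ± 0.622 against 13.6 ± 0.421 CPM (change of 0.00059 log2 units; adjusted p from edgeR 0.995, and over the alternatives 0.00366 to 0.995), and cdk-4 was at -1.31. With library totals (0.29) and without the length trend (0.22) cyd-1 was called higher. cdka-1, a gene named for an activator of CDK-5, rose by 0.99 on the log2 scale from 1.74 ± 0.0592 to 3.43 ± 0.309 CPM (edgeR adjusted p = 2.69e-05).

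Partners and paralogs of the mitotic kinases fell in 12 of 12 cases, with a median of -0.86. The smallest p were those of zyg-1 (-1.32), the kinase gene of centriole duplication, spat-1 (-1.09), the worm's Bora gene that helps to activate PLK-1, icp-1 (-1.07), the INCENP gene of the Aurora B complex, and plk-3 (-0.88). Of 12 centrosome genes 12 fell, with a median of -0.88, and pcmd-1 (-1.04), sas-6 (-0.87), spd-5 (-1.16) and spd-2 (-1.003) had the smallest p. spd-5 and spd-2 encode scaffolds of the pericentriolar material. Of 17 genes of spindle motors and cytokinesis 17 fell, with a median of -0.83, and zen-4 (-1.28), ani-1 (-1.19), klp-16 (-0.96) and ani-2 (-1.15) had the smallest p.

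The genes that end mitosis and those of the chromosomes fell as well. Of 23 genes of the anaphase-promoting complex and the spindle checkpoint 22 fell, with a median of -0.88, such as the activator gene fzy-1 (-1.07), such-1 (-1.02), mat-3 (-1.06) and mat-2 (-1.19). emb-1 was not called at -0.03. Of 16 kinetochore genes 15 fell, with a median of -0.75, such as hcp-2 (-1.42), hcp-1 (-1.13), knl-1 (-1.25) and kbp-1 (-1.19), and kbp-4 was not called at 0.07. Both emb-1 and kbp-4 were called higher with library totals (0.26 and 0.36) and lower without the length trend (-0.67 and -0.48), and emb-1 was called lower with DESeq2's size factors (-0.18). The smallest p among the condensin genes were those of hcp-6 (-1.71), dpy-28 (-1.58), capg-2 (-1.38) and mix-1 (-1.56). All 8 condensin genes fell, 7 of them at least 2-fold, with the lowest median of the 8 lists at -1.43. With the length trend removed that median was -0.90. The exons of cdk-11.1, cdk-8, cdc-25.3, such-1, hcp-1, spd-2, mix-1, and of spd-5 with hcp-6, overlap those of genes on the other strand, whose reads the library kit does not set apart.

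**Figure D5:**
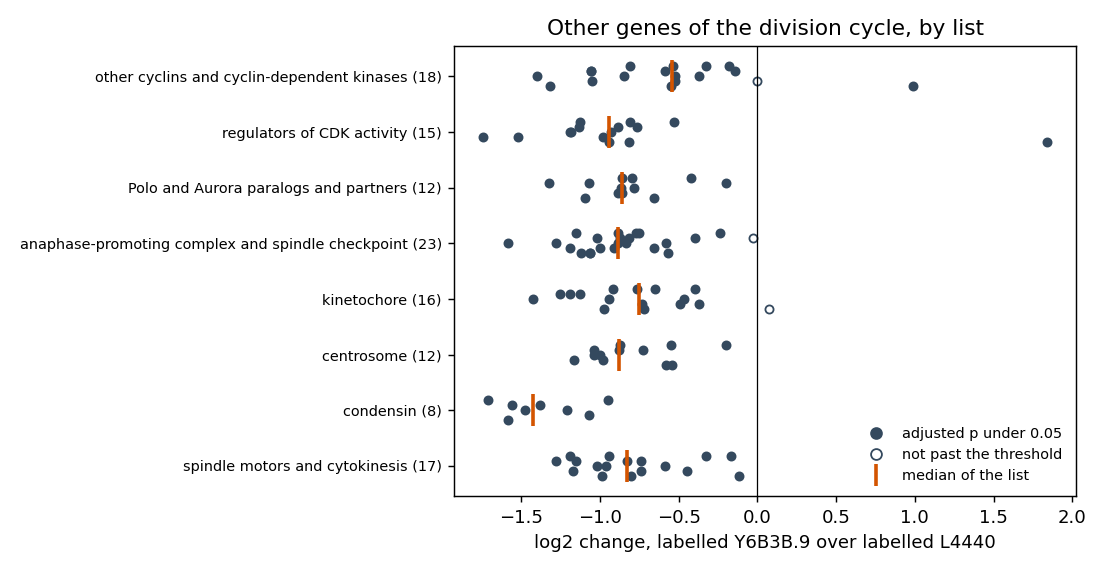
Log2 change of 121 tested genes in 8 lists of division cycle genes and of relatives of its cyclins and kinases, one point a gene. Points are filled where the adjusted p was under 0.05, with the list median in orange and the number of tested genes in brackets. Nearly all points lie left of 0, and cki-1 (1.84) and cdka-1 (0.99) are the filled points to the right.

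Many other genes shared the pattern of the 10 over the libraries. Among 8856 genes with at least 5 CPM on average, those with the highest Pearson r to the mean log2 CPM of the 10 genes over the 6 libraries were cdk-11.2, the splicing gene smu-1, egg-6, the fumarase gene fum-1 and tag-153, at r between 0.9999 and 1.00. Their log2 changes were -1.40, -1.12, -1.346, -0.74 and -1.39. With 2 groups in 6 libraries the difference between labels dominates such an r, and 27.2% of the genes compared had an r above 0.99.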

How the data were processed

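RNA was from whole N2 hermaphrodites, 3 libraries for each of 2 perturbation labels, numbered in record order and not paired. The TruSeq RNA kit v2 was used, per the labels' protocols, and it keeps no strand information. The submitters' processing notes name featureCounts 1.4.6-p4, STAR 2.4.1d and bcl2fastq 1.8.4, and the build WBcel235. Options, annotation release and strand setting were not given in the sources used here. Raw counts of 46748 features were deposited by the authors. The authors' RPKM values were computed with the 6 library totals recycled along the table: for 4330 genes with at least 1000 reads in every library, the implied length was constant within 0.1% in 4330 with recycled totals and in 0 with own totals. RPKM served only for gene lengths and as an alternative, and levels per length were computed from counts.

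The test was the quasi-likelihood test of edgeR (version 4.0.16, R 4.3.3), after filterByExpr and TMM, with robust=TRUE, Benjamini-Hochberg adjustment over 14265 genes and a threshold of 0.05. Standard errors were derived from its F statistic. Between libraries of one label, the chi-square over its degrees of freedom was 3.89 to 15.7, above sampling noise. Ratios within a library were compared by exact two-sided permutation tests (scipy 1.17.1). IDs were matched to symbols and positions in an Ensembl annotation of WBcel235, where 46449 features had an entry; the intestinal marker opt-2 matched none. The members and lists were chosen with earlier results of these data known. Named were the 10 members, up to 4 genes per list with the smallest p, the genes on a side with 5 or fewer, and the 5 genes most like the members; plk-2 and air-2 entered through the ratios, and cdk-4, cki-2 and wee-1.3 were added after their values were seen. As alternatives, the scaling was replaced by the size factors of DESeq2 (1.42.0) or by library totals, the filter was dropped or set to at least 1 CPM in 3 libraries, each library was left out, and robust=FALSE was set. Other tools were the DESeq2 Wald test, limma-voom (limma 3.58.1), and limma-trend on log2 RPKM with pseudocounts of 0.1 and 1. A centred loess curve of change against gene length was also removed through offsets; its removal from the within-library ratios was added after the data were seen. The code was tested on simulated data. Figures were drawn with matplotlib 3.10.9.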

Additional observations from a re-analysis of the deposited data

How the results depend on the processing

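The count of 10 members called lower and 0 higher was the same in all 16 alternatives fitted except 1, where it was 9. cyb-2.1 lost its call with the authors' RPKM plus 0.1 (log2 change -0.42; adjusted p by limma 0.0518, and over all alternatives 1.05e-44 to 0.0518), values that carry recycled totals. Over all alternatives the members' log2 changes lay between -1.36 and -0.32. The median log2 change of all genes moved by -0.15 with DESeq2's size factors and by 0.29 with library totals, and that of the members was -1.03 and -0.59. The number of all genes called lower was 5380, but 2762 and 2747 on the deposited RPKM with pseudocounts of 0.1 and 1.

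With library totals the genes called higher were 4 among the other cyclins and cyclin-dependent kinases (2 with the length trend removed), 1 in the anaphase-promoting complex and checkpoint list, 1 in the kinetochore list and 2 among spindle motors and cytokinesis (1 with the length trend removed). Differences of log2 ratios to germline marker reads changed sign for cyb-1 (-0.11), cyb-3 (-0.072) and cya-1 (-0.017) with oocyte reads as reference. They also did with the length trend removed for cyb-1 (-0.21), cyb-3 (-0.22), cdk-2 (-0.13) and air-1 (-0.016), as did the ratios of cyb-1 to cyb-3 (0.0071) and air-1 to air-2 (0.028). Leaving out single libraries gave between -0.0054 and 0.0271 for cyb-1 against germline reads, below 0 without Y6B3B.9 replicate 3 (-0.0054) or L4440 replicate 1 (-0.00143), and changed no call of a member. The cause of these shifts was not tested. With 3 libraries a group no permutation test of a ratio can go below 0.1. No paired analysis was run, because the labels give the libraries no shared replicate numbers. In record order the libraries alternate between the labels, but whether neighbours were collected together is not stated.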
